A study of Mus musculus with 13 samples.

Results

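Mural cells, the pericytes and smooth muscle cells that lie along the outside of blood vessels, were described here from single-nucleus RNA sequencing of the mouse hippocampus. A droplet (barcode) counted as a mural nucleus when it held at least 500 genes and at most 5% mitochondrial counts, showed at least 3 of the 6 mural markers Pdgfrb, Rgs5, Atp13a5, Abcc9, Vtn and Notch3, and had at least 20 counts of these markers in 10000. In all, 426 of the 105427 retained barcodes (0.404%) met this rule, in 13 libraries that held 6 to 75 mural nuclei each. The values of the 6 markers therefore chose the nuclei and are given as a description.

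The 13 libraries came from 13 female mice of the strain C3HB6F1, 1 library per mouse, with nuclei isolated from the whole frozen hippocampus and sorted on a DNA stain. Young mice fed ad libitum were 5 months old (3 libraries), and old mice fed ad libitum were 24 months old (3 libraries). Mice under acute dietary restriction were 24 months old and had been restricted from 20 months (3 libraries). Mice under long-term dietary restriction were 24 months old and had been restricted from 5 months (4 libraries). The replicate numbers used below are those of the sample titles, which for the old ad libitum mice are 1, 2 and 4. The whole hippocampus was taken, so arteries, capillaries, veins and the covering meninges were not separated.

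Pericytes sit within the basement membrane of capillaries, touching the endothelial cells, while smooth muscle cells wrap arteries and arterioles in contractile rings. Endothelial cells release platelet-derived growth factor B, which binds the receptor Pdgfrb on mural cells and keeps them on the vessel, and they present Notch ligands to the receptor Notch3. Mural cells of the brain set capillary and arteriolar tone through potassium and calcium channels and through cyclic GMP, and they help to maintain the blood-brain barrier.

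A channel pair serves as an example of a pericyte gene pair that the rule touched on 1 side only. Kcnj8 encodes the pore and Abcc9 the sulfonylurea receptor of an ATP-sensitive potassium channel that links vascular tone to energy state, and their gene models lie 16.2 kb apart on the minus strand of chromosome 6 (mm10). Abcc9 was a rule marker and was detected in 65.3% of mural nuclei, whereas Kcnj8 was not in the rule and was detected in 30.5%. Kcnj8 was found in 1.12% of endothelial, 0.258% of fibroblast and 0.0664% of granule neuron nuclei. Both promoters are printed as context for this shared pattern, from 250 bases before the start to 30 bases from it, with the bases that match TGGGAA on either strand in capitals (the core motif of RBPJ, the DNA-binding partner of Notch receptors). The windows are chr6:142702245-142702524 for Abcc9 and chr6:142571585-142571864 for Kcnj8, both on the minus strand of GRCm38.p6 and taken from RefSeq.
Abcc9: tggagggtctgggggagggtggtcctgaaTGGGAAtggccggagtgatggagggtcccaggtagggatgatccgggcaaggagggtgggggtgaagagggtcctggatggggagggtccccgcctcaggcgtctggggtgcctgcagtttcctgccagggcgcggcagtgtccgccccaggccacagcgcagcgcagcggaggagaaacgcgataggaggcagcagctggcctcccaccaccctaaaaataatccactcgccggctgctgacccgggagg
Kcnj8: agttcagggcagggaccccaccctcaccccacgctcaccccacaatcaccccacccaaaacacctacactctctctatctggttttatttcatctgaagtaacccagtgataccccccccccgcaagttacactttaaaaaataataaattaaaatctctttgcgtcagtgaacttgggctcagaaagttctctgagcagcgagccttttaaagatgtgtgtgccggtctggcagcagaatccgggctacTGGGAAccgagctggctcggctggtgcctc
The match lay 221 bases before the start in Abcc9 and at the start in Kcnj8. TGGGAA occurred in 25.6% of the 32851 promoters of the same table, each 300 bases long (250 before the start and 50 from it). It occurred in 6 of the 17 marker and leading genes with a promoter used here (35.3%). A gene counted if any of its promoters matched, so the shares of genes and of promoters are unlike measures. The letters CCCNNGGG, bound by factors of the EBF family, were in neither window, in 2 of those 17 genes (11.8%) and in 13.7% of all promoters. These matches describe letters in a window and not sites in use.

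The libraries held 38546292 to 80538090 counts of unique molecules (UMIs), and mural nuclei were shallow. The median mural nucleus had 1460.5 UMIs (range 697 to 15781) and 935.5 genes, against a median of 6291 UMIs in the other retained barcodes. Endothelial nuclei, with a median of 1517 UMIs, had a similar depth, and fibroblasts had 2304 and granule neurons 6603. A share of nuclei with a UMI rises with depth, so shares in granule neurons stand at a greater depth than those in mural nuclei. The barcode sequence of 11 mural nuclei also occurred in another library, and in no case did both barcodes meet the mural rule.

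Mural nuclei held a median of 128 marker UMIs per 10000 (range 20.3 to 454). Of the 426, 78 showed 3 of the markers, 111 showed 4, 135 showed 5 and 102 showed all 6. Just inside the threshold, 21 nuclei had 20 to 25 marker UMIs per 10000. Just outside it, 20 barcodes with at least 3 markers had 15 to 20 per 10000, with a highest value of 19.6. A further 79 barcodes reached 20 per 10000 with 2 markers only.

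The markers differed in how often they were detected outside the mural set. They chose that set, and barcodes that met the mural rule were left out of the sets compared with it. The rule therefore fixed these shares in part, and they are a description. Atp13a5, a P-type ATPase of brain pericytes, was detected in 94.6% of mural nuclei, 3.35% of endothelial nuclei and 13.8% of fibroblast nuclei. Vtn, which encodes the matrix protein vitronectin, was detected in 92.5%, 7.82% and 31.7% of them, and Pdgfrb in 81.7%, 1.68% and 24.9%. Abcc9 was found in 65.3% of mural and 2.23% of endothelial nuclei, and Notch3 in 63.4% and 1.68%. Rgs5, a regulator of G protein signalling often used as a pericyte marker, was the exception, with 63.8% of mural and 46.6% of endothelial nuclei. Its level was 9.89 UMIs per 10000 in mural nuclei and 8.93 in endothelial nuclei, and the mural level was the higher in 5 of 13 libraries. The endothelial, fibroblast and granule neuron sets were defined by the same kind of rule on their own markers and held 358, 774 and 42152 nuclei outside the mural set.

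**Figure D1:**
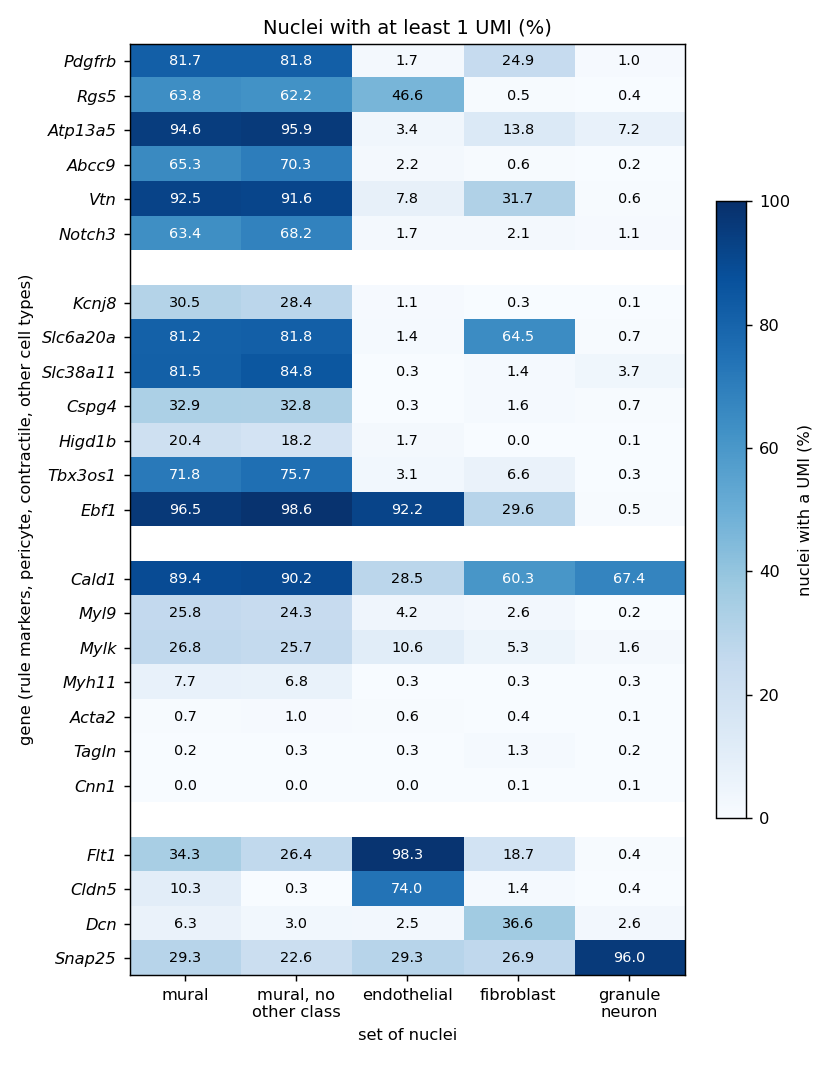
Percentage of nuclei with at least 1 UMI of each gene (rows) in mural nuclei, mural nuclei that met no other class rule, endothelial nuclei, fibroblasts and granule neurons (columns). Atp13a5 and Vtn lie above 90% in mural nuclei, Rgs5 is shared with endothelial nuclei at 46.6%, and the arterial genes Acta2 and Myh11 are at low values in every column.

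Outside the rule, the 20 genes with the largest ratio of level in mural nuclei to level in all other barcodes were Cysltr2, Kcnj8, Carmn, Tbx3os1, Ndufa4l2, Higd1b, Pla1a, Atp2a3, Pla2r1, Myl9, Morrbid, Enpep, Gjc1, Nid1, Slc38a11, Rbpms, Col4a3, Ebf1, Tbx2 and Egflam. Several are established pericyte genes. Slc38a11, an amino acid transporter, was detected in 81.5% of mural nuclei, 0.279% of endothelial nuclei and 1.42% of fibroblasts. Tbx3os1, a transcript antisense to the T-box gene Tbx3, was detected in 71.8%, and Carmn, a long noncoding RNA of contractile cells, in 36.6%. Cysltr2, a leukotriene receptor, was found in 20.4% of mural nuclei and in 0.279% of endothelial nuclei. Ebf1 was detected in 96.5% of mural nuclei and also in 92.2% of endothelial nuclei, and so it marked vascular nuclei of both kinds. Of the 26 marker and leading genes, 13 share their span with another gene model on either strand. How strand was used in counting is not given in the sources used here. Whether counts of such genes, Tbx3os1 and Tbx3 among them, were kept apart is therefore not known here.

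The label names smooth muscle beside pericytes, and the defining genes of arterial smooth muscle were nearly absent. Over all 426 nuclei there were 5 UMIs of Acta2 (smooth muscle actin), 2 of Tagln and 0 of Cnn1 (calponin), and a count of 0 allows a share of up to 0.704% of nuclei with a UMI of Cnn1. Myh11, the smooth muscle myosin heavy chain, had 43 UMIs in 7.75% of mural nuclei. Of these 4 genes, 35 nuclei showed any and 1 nucleus showed 2. Over the whole contractile list, 14 of 16 genes in the files were detected, 7 of them in at least 5% of mural nuclei. The actin-binding protein gene Cald1 alone held 65.7% of the contractile UMIs. It was detected in 89.4% of mural nuclei, but also in 67.4% of granule neurons. Myl9 and Mylk, the light chain of myosin and its kinase, were detected in 25.8% and 26.8% of mural nuclei and in 4.19% and 10.6% of endothelial nuclei.

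A nucleus was put in the smooth muscle type when its contractile UMIs exceeded its UMIs of the pericyte list, with at least 2 contractile genes detected. By this rule 73 nuclei (17.1%) were of smooth muscle type, 344 (80.8%) of pericyte type and 9 undetermined. All 73 of the smooth muscle type held Cald1, and 12 of them held Acta2, Tagln, Cnn1 or Myh11. Without Cald1, which was left out after its share had been seen, 16 nuclei were of smooth muscle type. The nuclei described here are therefore called mural, with a pericyte profile, and the smooth muscle label rests on few nuclei. The mural rule itself uses markers that are strongest in pericytes. Among the 90 barcodes with at least 4 contractile genes at 20 or more UMIs per 10000, 45 met the mural rule and 45 did not, and 35 of the latter met the fibroblast rule.

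Some mural barcodes also carried the markers of another cell type. In all, 130 met a further class rule, most often endothelial (43), neuron (39), fibroblast (21), granule neuron (19) or astrocyte (17), and 296 (69.5%) met none. Those 130 had a median of 3671 UMIs and the other 296 a median of 1315. The doublet caller Scrublet placed 21 mural nuclei among its highest scores, 20 of which met another class rule. No nucleus was removed for this, and the 5 main contrasts between groups, of shares and of expression, were repeated in the 296. Flt1, an endothelial receptor, was detected in 34.3% of mural nuclei and in 26.4% of the 296, where Cldn5, the endothelial tight junction protein, was detected in 0.338%. The synaptic gene Snap25 was found in 29.3% of mural nuclei and 22.6% of the 296. Whether these transcripts came from the nucleus, from free RNA or from a second nucleus was not tested.

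Gene groups were taken from lists of known function, chosen with earlier results of these data in view. The pericyte list (15 genes without rule markers) summed to 38.4 UMIs per 10000 in mural nuclei, 2.30 in endothelial nuclei and 19.8 in fibroblasts. Slc6a20a, a proline transporter, led that list and was detected in 81.2% of mural nuclei but also in 64.5% of fibroblasts. P2ry14, a receptor for UDP-sugars, was detected in 43.2% of mural nuclei and in 70.7% of granule neurons, and its span overlaps Med12l. Cspg4 (the NG2 proteoglycan) was found in 32.9% of mural and 0.279% of endothelial nuclei. Across the 13 libraries the list ran from 30.6 to 48.3 UMIs per 10000. The contractile list summed to 22.9 UMIs per 10000 and ran from 13.5 to 28.7.

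Genes of vessel tone formed the next group. The list of vasoactive receptors and cyclic GMP signalling summed to 52.9 UMIs per 10000 in mural nuclei, 23.6 in endothelial nuclei and 17.9 in fibroblasts. Ednra, the endothelin receptor of mural cells, was detected in 42.5% of mural nuclei and 0.559% of endothelial nuclei. Gucy1b1, a subunit of the nitric oxide receptor, was detected in 61.7% and 5.59%, Gucy1a1 in 31.0% and 1.68%, and the phosphodiesterase Pde3a in 37.8% and 1.12%. Prkg1, the cyclic GMP-dependent kinase, was in 95.3% of mural nuclei, 80.7% of endothelial nuclei and 97.3% of granule neurons. Among ion channels, the calcium-activated chloride channel Ano1 was detected in 48.8% of mural nuclei and 0.559% of endothelial nuclei. Cacna1c, the pore of the L-type calcium channel, was detected in 81.5% of mural nuclei and in 97.7% of granule neurons. The whole ion channel list, at 57.5 UMIs per 10000, was lower than in granule neurons, at 70.3.

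Ligands and receptors split between the vascular cell types. Pdgfb, the ligand of Pdgfrb, was detected in 36.0% of endothelial nuclei and 6.57% of mural nuclei, and in 0.676% of the 296 that met no other rule. The list of PDGF and angiopoietin signalling summed to 5.51 UMIs per 10000 in mural nuclei and 13.2 in endothelial nuclei. Beside Notch3, the receptor Notch1 was detected in 32.6% of mural nuclei, its coactivator Maml2 in 76.8% and the target Heyl in 15.0%, against 1.12% for Heyl in endothelial nuclei. The Notch list without Notch3 summed to 19.6 UMIs per 10000 in mural and 14.2 in endothelial nuclei. The list of TGF-beta and BMP signalling was lower in mural nuclei (18.7) than in endothelial nuclei (38.3), and 3 of its 19 genes were higher in mural nuclei.

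Matrix genes and transcription factors followed. The list of basement membrane and matrix genes summed to 49.5 UMIs per 10000 in mural nuclei, 28.8 in endothelial nuclei and 35.3 in fibroblasts, with 14 of 26 genes above both. Lama2 and Lamc1, laminin chains, were detected in 78.9% and 61.0% of mural nuclei, and the nidogen gene Nid1 in 37.1%. Col4a3, which encodes a collagen IV chain, was detected in 30.5% of mural nuclei, 2.51% of endothelial nuclei and 1.16% of fibroblasts. The list of mural transcription factors summed to 52.6 UMIs per 10000, led by Ebf1, and held Zic1 in 46.2% of mural nuclei against 1.40% of endothelial nuclei. Nr2f2 was found in 47.9% and 11.7%, Mef2c in 55.9% and 43.9%, and Tbx18 in 19.2% and 0.559%.

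Lists of state rather than identity were compared with endothelial nuclei. Glucocorticoid response genes summed to 8.87 UMIs per 10000 in mural nuclei and 15.8 in endothelial nuclei, fasting response genes to 2.38 and 3.20, and senescence and inflammation genes to 7.86 and 24.4. Clock output genes summed to 6.67 and 3.80, and clock genes of the opposite phase to 2.13 and 2.55. Heat shock genes reached 11.2 UMIs per 10000 in mural and 15.7 in endothelial nuclei, and activity-dependent early genes 4.82 and 12.2. The mural sums, here and in the lists above, include the 43 nuclei that also met the endothelial rule. The endothelial set leaves those nuclei out. These comparisons of list sums between cell types were not repeated in the 296 nuclei of no other class. Heat shock and early genes are given by library in those nuclei further below.

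The share of mural nuclei varied between mice of a group. In young mice it was 0.315% (95% Wilson interval 0.215 to 0.461), 0.141% (0.0838 to 0.236) and 0.316% (0.214 to 0.465) in replicates 1, 2 and 3. In old ad libitum mice it was 1.54% (1.18 to 2.00), 0.209% (0.137 to 0.319) and 0.0905% (0.0415 to 0.197) in replicates 1, 2 and 4. Under acute restriction it was 0.511% (0.383 to 0.680), 0.292% (0.191 to 0.446) and 0.340% (0.252 to 0.460) in replicates 1, 2 and 3. Under long-term restriction it was 0.568% (0.440 to 0.734), 0.334% (0.230 to 0.486), 0.251% (0.140 to 0.448) and 0.950% (0.759 to 1.19) in replicates 1 to 4. Old ad libitum mice held both the highest and the lowest share, and all groups overlapped. The intervals cover counting error only.

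**Figure D2:**
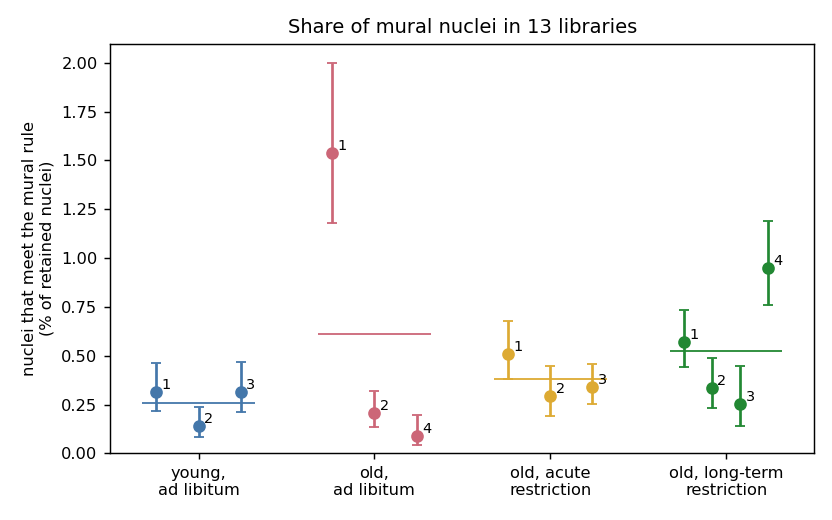
Mural nuclei as a percentage of retained barcodes in each library (points, with replicate numbers and 95% Wilson intervals) by group, with a line at the group mean. The old ad libitum libraries run from 0.0905% to 1.54% and span the points of all other groups.

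The group means were 0.257% ± 0.101 (SD, n = 3) in young mice, 0.612% ± 0.803 (n = 3) in the old ad libitum group, 0.381% ± 0.115 (n = 3) in acutely restricted mice and 0.526% ± 0.313 (n = 4) in long-term restricted mice. An exact two-sided permutation test of the F statistic on log2 odds over all 1201200 assignments gave p = 0.766. The differences in mean log2 odds were 0.37 for old against young (exact p = 0.900), 0.56 for long-term restriction against old ad libitum (exact p = 0.657) and 0.23 for acute restriction (exact p = 0.8). They were 0.32 for long-term against acute restriction (exact p = 0.600) and 0.42 for both restricted groups together against old ad libitum (exact p = 0.633). All 5 had a Benjamini-Hochberg adjusted p of 0.900 (exact permutation). A comparison of 3 with 3 libraries cannot give an exact p below 0.1, and one of 3 with 4 none below 0.0286. A difference in the share was not detectable with this spread, and the sign of each contrast depended on single libraries or on the denominator. The ageing difference was -0.77 without old ad libitum replicate 1 and -0.0063 without young replicate 2. The restriction differences were -0.30 (long-term), -0.62 (acute) and -0.44 (any restriction) once old ad libitum replicate 4 was left out. With mural, endothelial and fibroblast nuclei together as the denominator they were -0.56, -0.54 and -0.55. Among nuclei that met the mural or the endothelial rule they were 0.23, -0.17 and 0.057. For long-term against acute restriction it was -0.018 without long-term replicate 4.

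Mural nuclei were also counted against endothelial nuclei, a denominator added after the data had been seen. Of nuclei that met either rule, mural nuclei made up 47.2% to 70.0% in young mice, 48.8% to 57.4% in the old ad libitum group, 47.2% to 55.4% in acutely restricted mice and 43.0% to 70.8% in long-term restricted mice. The groups overlapped (exact permutation p of F = 0.670). The old ad libitum library with the highest mural share, replicate 1, had a mural part of 57.4% here, inside the range of the young mice. The share of smooth muscle type ran from 7.14% to 29.6% of mural nuclei in the 12 libraries with at least 10 mural nuclei (exact permutation p of F = 0.916, and adjusted p = 1 in all 5 contrasts). No contrast of this share could pass the adjusted threshold, since the smallest possible exact permutation p was 0.0278 to 0.1.

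Expression was compared between groups on counts summed over the mural nuclei of each mouse, in 12 libraries. The old ad libitum mouse with replicate number 4 had 6 mural nuclei, below the minimum of 10, and was left out of the fit, so that group had 2 libraries there. Of 2207 genes with enough counts, edgeR's quasi-likelihood test called 0 (0%) at a Benjamini-Hochberg adjusted p below 0.05 in each of the 5 contrasts, and DESeq2 called 0. The median standard error of a log2 fold change was 0.574 for old against young, 0.498 for long-term and 0.532 for acute restriction. None of the values below passed the test, and they are given as a description. The 6 rule markers chose the nuclei, so their levels get no test.

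Across groups the rule markers had no common direction. In UMIs per 10000, Atp13a5 was 32.5, 30.4 and 50.4 in young mice, 53.4, 45.5 and 47.4 in the old ad libitum group, 45.4, 38.8 and 50.1 in acutely restricted mice, and 31.7, 45.8, 32.5 and 55.4 in long-term restricted mice. Its groups overlapped. Vtn was 41.9, 17.6 and 24.6 in young mice, 36.4, 9.40 and 21.4 in the old ad libitum group, 26.9, 10.4 and 12.1 in acutely restricted mice, and 25.4, 13.1, 9.46 and 11.2 in long-term restricted mice. Within every group its highest value was in the library numbered 1. The labels do not say what the numbers stand for. Pdgfrb ran from 4.90 to 15.1 over the libraries, Rgs5 from 1.76 to 16.0, Abcc9 from 3.72 to 13.4 and Notch3 from 3.97 to 11.9.

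**Figure D3:**
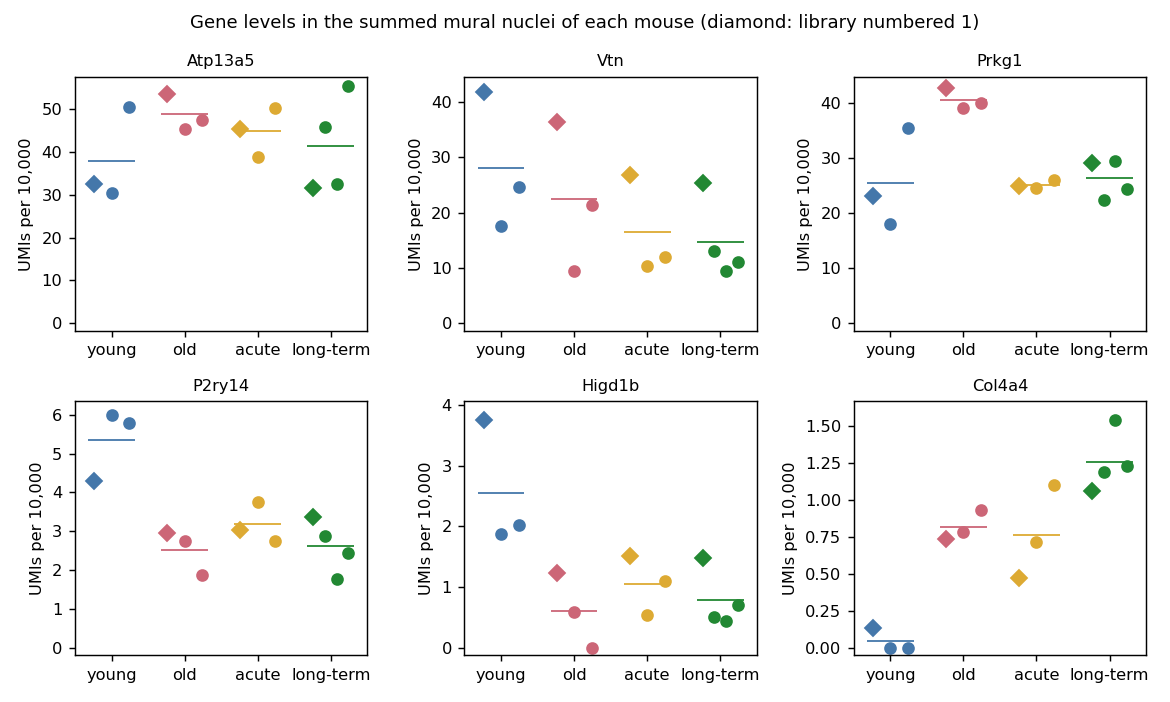
UMIs per 10000 in the mural nuclei of each library for Atp13a5, Vtn, Prkg1, P2ry14, Higd1b and Col4a4, by group, with a line at the group mean and diamonds for libraries numbered 1. Prkg1 is above 38 in the old ad libitum libraries alone, P2ry14 and Higd1b are highest in young libraries, and Col4a4 is near 0 in young libraries.

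Old against young ad libitum mice addressed ageing. Unadjusted p was below 0.05 for 112 of the 2207 genes (5.07%), and the groups did not overlap for 378 (17.1%). Of the 84 tested genes of all the lists, those of state included, 18 (21.4%) did not overlap. An unadjusted p below 0.05 was found for 3 (3.57%), and both shares were close to those over all genes. None of the 9 tested pericyte genes was called, 4 were higher and 5 lower in old mice, and their median log2 fold change was -0.19 against -0.01 over all genes. The same count was 4 higher and 1 lower of 5 contractile genes (median 0.28), and 6 higher and 2 lower of 8 vasoactive genes (median 0.36). It was 10 higher and 5 lower of 15 matrix genes (median 0.15) and 4 higher and 2 lower of 6 transcription factors (median 0.39). All 3 Notch genes tested were higher in old mice (median 0.40). Several of these medians changed when a single library was left out. Each such fit filtered the genes anew, so its medians can cover other genes. Without old ad libitum replicate 1 or 2, that group kept 1 library in the fit, here and in the contrasts below. Without old ad libitum replicate 1 the median was -0.16 for matrix genes, -0.17 for transcription factors, 0.16 for vasoactive genes and -0.73 for pericyte genes, and without old ad libitum replicate 2 it was 0.12 for pericyte genes. Without young replicate 2 the contractile median was -0.0018, and without young replicate 3 the Notch median was 1.26.

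Of the genes named by the smallest p without overlap, Dock3, a neuronal guanine nucleotide exchange factor, had a log2 fold change of -2.29 (SE 0.51, adjusted p = 0.855 in edgeR). Cntn5 (contactin) had -3.48, Atp2b2 (a plasma membrane calcium pump) -3.27, Gabbr1 (a GABA receptor subunit) -2.19, 5330438D12Rik -2.54 and Cdr1os -2.34. Without old ad libitum replicate 1, Cdr1os had -1.05 and Atp2b2 -6.27. Trappc9 had 1.85, the kinases Grk3 and Aak1 1.78 and 1.71, and Srgap2 1.36. Of these 10 genes, 7 had a higher level in the other barcodes than in mural nuclei. The same share over all 2207 tested genes was not counted, here or for the contrasts below, so these counts have no background. Neuron marker genes summed to 20.3, 18.8 and 11 UMIs per 10000 in the mural nuclei of the young libraries and to 4.36 and 25.7 in the old ones that were fitted. The part of neuronal RNA in these values was not tested.

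Within the pericyte list, P2ry14 and Higd1b had the smallest p in this comparison. P2ry14 was 4.30, 6.01 and 5.79 UMIs per 10000 in the young libraries and 2.94, 2.74 and 1.86 in the old ad libitum group, so the groups did not overlap. In the nuclei that met no other class rule they did, at 9.59, 1.23 and 6.67 against 4.42, 3.29 and 2.35. Its log2 fold change was -1.06 (SE 0.37, unadjusted p = 0.0130, adjusted p = 0.855 in edgeR). Higd1b, a small mitochondrial protein gene of pericytes, was 3.76, 1.88 and 2.03 in the young libraries and 1.23, 0.588 and 0 in the old ad libitum group. The 0 stands for no UMI in 6 nuclei, which allows a level of up to 2.79 UMIs per 10000. Its log2 fold change was -1.59 (SE 0.60, adjusted p = 0.864 in edgeR). Kcnj8, the channel pore, overlapped between young (0.751 to 4.70) and old ad libitum mice (0 to 3.19).

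Collagen IV chains were examined after their values had been seen. Col4a3 and Col4a4 lie head to head on chromosome 1, and their products assemble with that of the X-linked gene Col4a5 into a basement membrane network best known from the kidney and inner ear. The stretch between the starts of Col4a4 and Col4a3 is shown because the genes on its sides are read from it in opposite directions. It spans chr1:82586849-82586920 of GRCm38.p6, is read here on the minus strand towards Col4a4 from the RefSeq promoter, is 72 bases long and ends with the first transcribed base of Col4a4 in capitals.
Col4a4: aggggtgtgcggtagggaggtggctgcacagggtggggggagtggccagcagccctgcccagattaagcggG
Col4a4 had 1, 0 and 0 UMIs in the mural nuclei of the young libraries, out of 74444, 26632 and 34545. It had 12, 4 and 1 in the old ad libitum group, 4, 4 and 8 in acutely restricted mice and 15, 7, 7 and 19 in long-term restricted mice. In UMIs per 10000 this was at most 0.134 in young libraries and 0.467 to 1.54 in the 10 libraries of 24-month-old mice, without overlap. The depth of the young libraries limits this, since a count of 0 allows up to 1.13 and 0.868 UMIs per 10000 in replicates 2 and 3. Pooled, the level was 0.0737 in young and 0.963 UMIs per 10000 in all old mice, restricted ones included. The ratio was 13.1 with an exact 95% counting interval of 2.28 to 522. The pooled intervals of this paragraph cover counting error only. They leave out the spread between mice and are no test of a difference. Col4a4 had too few counts to enter the fit, so it has no test over mice. Col4a3, across the short stretch, was 1.07, 0.751 and 1.74 in the young libraries and 1.18 to 3.72 in the old, with overlap, and its pooled ratio was 1.77 (1.06 to 3.17). Col4a5 was 0 to 0.403 in the young libraries and 0.774 to 1.87 in the old, without overlap, but the 0 of young replicate 2 allows up to 1.13. Its pooled ratio was 3.67 (1.38 to 13.8). Between old and young ad libitum mice its log2 fold change was 1.59 (SE 0.77, adjusted p = 0.937 in edgeR).

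For long-term restriction, the old ad libitum libraries were the controls. Unadjusted p was below 0.05 for 60 genes (2.72%), and the groups did not overlap for 242 (11%). Of the 84 list genes, 12 (14.3%) did not overlap and 1 had an unadjusted p below 0.05. All 8 tested vasoactive genes were lower under restriction (median log2 fold change -0.36), as were 7 of 9 pericyte genes (-0.54), all 5 contractile genes (-0.47), 11 of 15 matrix genes (-0.29) and 5 of 6 transcription factors (-0.37), and 0 of these were called. Without old ad libitum replicate 1 the medians of matrix genes (0.068) and transcription factors (0.029) took the opposite sign, and those of contractile (-0.061), pericyte (-0.13) and vasoactive genes (-0.19) were nearer to 0. Of the 10 named genes, those reported here were Dtna (2.85), Tspan7 (1.97), Gabrb1 (1.46), Atp2b2 (2.71), Hbb-bs (-4.33), Rgs20 (3.22), Cers6 (2.07), Sltm (1.26) and Dock3 (1.48), given as log2 fold changes with an adjusted p of 0.999 in edgeR. Of the 10, 9 had a higher level in the other barcodes than in mural nuclei. Hbb-bs passed the adjusted threshold with a term for the libraries numbered 1. It had -6.59 without long-term replicate 1 and -2.68 without old ad libitum replicate 1. Leaving out old ad libitum replicate 1 or 2 gave 5.81 or 2.29 for Atp2b2, 1.60 or 4.42 for Dtna and 0.97 or 1.92 for Dock3. With the mural rule at 10 marker UMIs per 10000, Atp2b2 had -0.0042.

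Acute restriction was compared with the same old ad libitum libraries, so the counts below share their controls with those above. Unadjusted p was below 0.05 for 46 genes (2.08%), and the groups did not overlap for 388 (17.6%). Of the 84 list genes, 18 (21.4%) did not overlap and 5 had an unadjusted p below 0.05. Lower values in acutely restricted mice were seen for 6 of 8 vasoactive genes (median log2 fold change -0.42), 5 of 9 pericyte genes (-0.76), 5 of 5 contractile genes (-0.38), 8 of 15 matrix genes (-0.02) and 4 of 6 transcription factors (-0.14). The pericyte median was 0.073 without young replicate 1, whose removal changes the genes tested and the shared spread. Without old ad libitum replicate 1 the medians were -0.066 for vasoactive genes, 0.26 for matrix genes and 0.44 for transcription factors. The contractile median was -0.43 to -0.16 with 1 library left out. Art3, an ADP-ribosyltransferase of pericytes, had -1.08 (SE 0.41), Cspg4 -0.94 (SE 0.37) and Mef2c -1.11 (SE 0.39), each with an adjusted p of 1.00 in edgeR. Trpc6 had 2.35 (SE 0.72) and was detected in 10.3% of mural nuclei but in 82.6% of granule neurons, and without old ad libitum replicate 1 its value was 6.69 and that of Atp2b2 6.41. The other named genes were Atp2b2 (3.34), Edil3 (2.15), Ddhd2 (2.59), Cers6 (2.14), Cntn5 (2.53), Slc9a9 (-1.29), Ankrd28 (1.30) and Uhrf2 (-1.49), and 8 of the 10 had a higher level in the other barcodes than in mural nuclei. Cntn5 took the opposite sign with the mural rule at 10 (-0.23) or 40 marker UMIs per 10000 (-0.45). Without old ad libitum replicate 1, Cntn5 had 1.61 and Slc9a9 had -0.62. Uhrf2 had -2.41 without acute replicate 1.

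Both restricted groups together were compared with old ad libitum mice. Unadjusted p was below 0.05 for 72 genes (3.26%), and the groups did not overlap for 111 (5.03%), against 9 of the 84 list genes (10.7%). The 9 list genes included Prkg1. Prkg1 was 42.6, 39.0 and 40.0 UMIs per 10000 in the old ad libitum group, 24.9, 24.5 and 25.9 in acutely restricted mice, and 29.1, 22.4, 29.5 and 24.4 in long-term restricted mice. All 3 old ad libitum libraries were above all 7 restricted ones, and young mice, at 23.1, 18.0 and 35.3, were below them too. The log2 fold change was -0.67 (SE 0.27, unadjusted p = 0.0259, adjusted p = 0.999 in edgeR). In the mural nuclei that met no other class rule, Prkg1 was 49.4 to 58.4 in the old ad libitum group and 23.4 to 52.6 in the others, and these ranges overlapped.

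Summed, the vasoactive and cyclic GMP list was 72.3, 61.7 and 81.8 UMIs per 10000 in the old ad libitum group and 33.0 to 59.3 in the other 10 libraries, so the old ad libitum libraries, 1 of them with 6 nuclei only, stood above the rest. The ranges stayed apart in the nuclei that met no other class rule, at 92.6 to 95.2 and 55.4 to 90.9. All 8 tested genes of the list were lower under restriction (median -0.44, and -0.49 to -0.045 with 1 library left out, the latter without old ad libitum replicate 1), 0 of them called. This sum was singled out after its values had been seen, and Prkg1 held 55.7% of its UMIs in mural nuclei. The named genes of this contrast were Atp2b2 (3.02), Cers6 (2.11), Ddhd2 (2.45), Edil3 (1.86), Dock3 (1.42), Ankrd28 (1.21), Sltm (1.10), Trpc6 (1.92), Sox2ot (1.96) and Arhgef17 (-0.94) as log2 fold changes, 9 of which had a higher level outside mural nuclei. Leaving out old ad libitum replicate 1 gave 6.11 for Atp2b2, 6.28 for Trpc6 and 0.89 for Dock3.

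**Figure D4:**
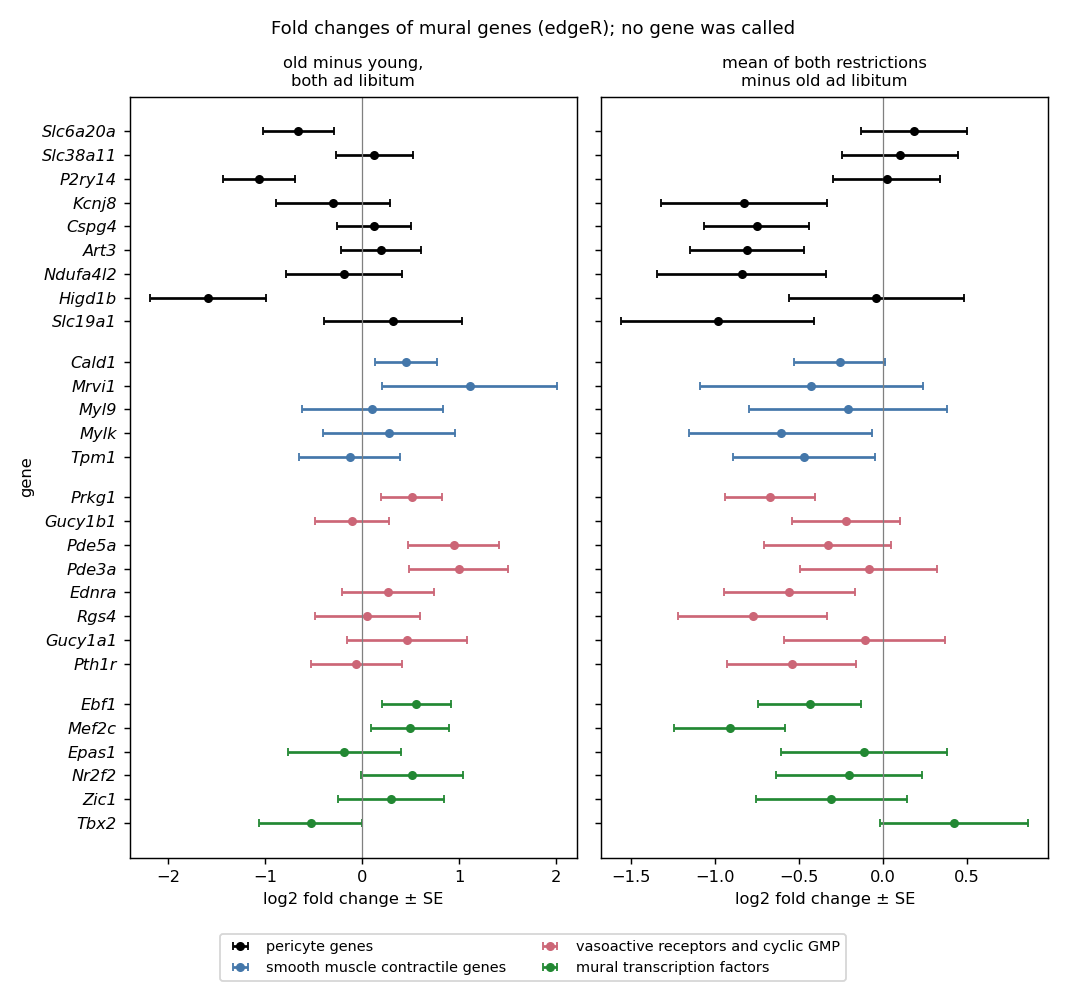
Log2 fold change with its standard error for tested genes of the pericyte, contractile, vasoactive and transcription factor lists, for old against young mice and for any restriction against old ad libitum mice. All 8 vasoactive genes lie below 0 for any restriction, and no gene passed the adjusted threshold in either contrast.

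Long-term and acute restriction were compared directly. Unadjusted p was below 0.05 for 42 genes (1.9%), the groups did not overlap for 96 (4.35%), and 1 of the 84 list genes did not overlap, Agrn. This gene encodes agrin, a heparan sulfate proteoglycan of basement membranes, and was 1.28, 1.61 and 2.19 UMIs per 10000 in acutely restricted mice and 1.06, 0.679, 0.660 and 0.774 in long-term restricted mice (log2 fold change -1.01, SE 0.41, adjusted p = 1.00 in edgeR). The vasoactive list was balanced, with 4 genes higher and 4 lower (median -0.09), and 7 of 9 pericyte genes were lower (-0.16). Without acute replicate 3 these medians took the opposite sign (0.073 and 0.013). The named genes were Grip1 (-2.25), Gm3764 (1.67), Tox (2.21), Hbb-bs (-3.84), Luc7l3 (0.94), Dtna (1.58), Hba-a1 (-3.64), Cadps (-1.41), Upp2 (1.40) and Akap8l (-0.79), given as log2 fold changes with an adjusted p of 1.00 in edgeR, and 8 of the 10 had a higher level outside mural nuclei. Without acute replicate 1, Hbb-bs had -2.10 and Hba-a1 -1.75, and without long-term replicate 1 they had -6.06 and -5.59. Upp2 had 0.93 without acute replicate 1 and 2.19 without acute replicate 3. Hbb-bs passed the adjusted threshold with the replicate block, without the libraries numbered 1 and with a term for them, and Hba-a1 passed it with that term.

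The 9 fitted libraries of 24-month-old mice were also set against the 3 young ones, a contrast added after the data had been seen and one that mixes ageing with restriction. Among 2207 genes, edgeR called 0, 178 (8.07%) had an unadjusted p below 0.05, and 56 (2.54%) did not overlap, against 3 of the 84 list genes (3.57%), which were P2ry14, Higd1b and Col4a5. This was judged on log2 CPM in the 12 fitted libraries, and in UMIs per 10000 over all 13 the laminin gene Lamc3 did not overlap either (1.21 to 1.50 in young and 1.53 to 3.29 in the older mice). Of list genes with too few counts for the fit, Col4a4 and the Notch target Hey2 (0.940 to 1.16 and 0.179 to 0.930) did not overlap. The gaps of Lamc3 and Hey2 were narrow. The share of all genes without overlap in UMIs per 10000 over 13 libraries was not counted, so these genes have no background to be read against. P2ry14 was 4.30 to 6.01 UMIs per 10000 in young and 1.76 to 3.76 in the older mice (log2 fold change -1.05, SE 0.27, adjusted p = 0.480 in edgeR). Higd1b was 1.88 to 3.76 and 0 to 1.52 (-1.62, SE 0.43, adjusted p = 0.502 in edgeR). Col4a5 had a log2 fold change of 1.72 (SE 0.65, adjusted p = 0.521 in edgeR). In mural nuclei that met no other class rule the ranges of P2ry14, Higd1b, Lamc3 and Hey2 overlapped between young and older mice, as did those of Col4a5 (0 to 0.457 and 0 to 2.31 UMIs per 10000). Those of Col4a4 did not (0 to 0.457 and 0.830 to 2.29), but the counts of 0 in young replicates 2 and 3 allow up to 3.69 and 1.33 there, within the range of the older mice or above it. Other named genes of this contrast were Cnot2 (-1.11), Sox2ot (6.55), Aak1 (1.68), Gabbr1 (-1.37), Cdr1os (-1.60), Cntn3 (-1.64), Enpp2 (2.79) and Grk3 (1.45), and 5 of the 10 had a higher level outside mural nuclei.

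The state and signalling lists showed no call in any contrast, and values are given chiefly for ageing. For old against young mice the 4 tested glucocorticoid genes were all lower (median -0.31, and -0.86 to -0.25 with 1 library left out). Of 4 heat shock genes, 3 were lower (-1.01, and -0.088 without young replicate 1). Of 8 TGF-beta and BMP genes, 5 were higher (0.18, and -0.42 to 0.58 with 1 library left out). All 3 clock output genes were higher (0.42, and 0.16 to 0.54 with 1 library left out). Both tested PDGF and angiopoietin genes were higher (0.36), as were 7 of 13 ion channel genes (0.01). Of 20 senescence and inflammation genes only 2 were tested, H2-D1 and Cxcl12, and both were higher (0.27). They were lower under long-term (-0.62), acute (-0.89) and any restriction (-0.75), contrasts that use the same old ad libitum libraries. In all older mice against young ones they were lower too (-0.23). The single tested genes of the activity-dependent list and of the clock list of opposite phase had -1.22 and 0.24. No fasting response gene had enough counts.

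Haemoglobin transcripts, which belong to red blood cells, varied widely between libraries. The 4 haemoglobin genes gave 2330 UMIs in 74 mural nuclei (17.4%), and 57 of these UMIs lay in nuclei that met no other class rule. By library the sum was 12.8, 0.751 and 0.289 UMIs per 10000 in young mice, 74.5, 12.9 and 0 in the old ad libitum group, 82.7, 10.4 and 9.18 in acutely restricted mice, and 7.17, 1.53, 0 and 0.451 in long-term restricted mice. The highest value of each group was in the library numbered 1. In old ad libitum replicate 2, all 66 haemoglobin UMIs lay in 1 mural nucleus. Other barcodes held at most 0.542 per 10000 in any library, while the endothelial set held 40.1. The endothelial markers gave 3203 UMIs in mural nuclei, 128 of them in nuclei of no other class. For endothelial markers the 4 libraries numbered 1 held 45.0, 38.5, 52.4 and 60.7 UMIs per 10000, and the other 9 held 0.930 to 39.5.

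**Figure D5:**
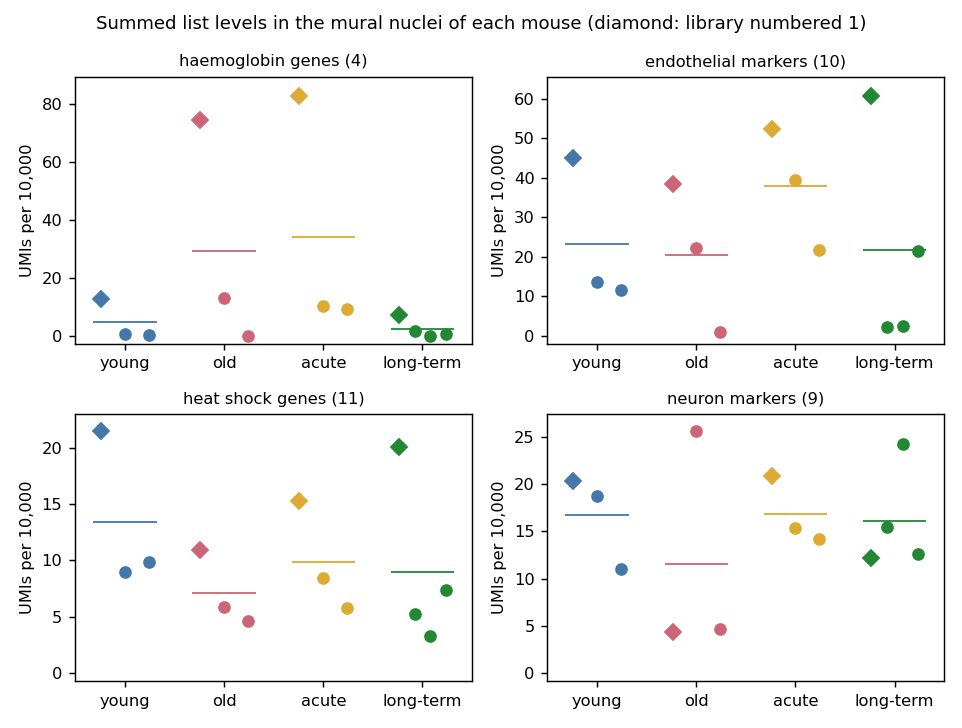
UMIs per 10000 of haemoglobin genes (4), endothelial markers (10), heat shock genes (11) and neuron markers (9) in the mural nuclei of each library by group, with diamonds for libraries numbered 1 and a line at the group mean. The diamonds are the highest points of their group for haemoglobin and for heat shock genes.

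Libraries numbered 1 stood apart in further lists, read from the same values. Heat shock genes summed to between 10.9 and 21.5 UMIs per 10000 in those 4 libraries, and to between 3.30 and 9.84 in the other 9. Activity-dependent early genes summed to 4.42 to 11.7 and 0 to 3.22, and TGF-beta and BMP genes to 19.7 to 25.0 and 7.26 to 19.5. These 3 of 28 lists were without overlap. In nuclei that met no other class rule all 3 overlapped, at 8.51 to 17.8 and 4.01 to 14.8 for heat shock, 1.24 to 2.59 and 0 to 2.67 for early genes, and 10.96 to 15.6 and 9.18 to 16.3 for TGF-beta and BMP. Haemoglobin genes did not overlap there, at 1.83 to 3.14 in the libraries numbered 1 and at most 1.07 elsewhere. Few UMIs limit this, since old ad libitum replicate 4 and long-term replicate 3 held 0 haemoglobin UMIs. Such a count allows up to 3.53 and 2.50 per 10000 there, above or within the range of the libraries numbered 1. Each group had 1 library numbered 1, and the contrasts were repeated without these libraries and with a term for them.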

How the data were processed

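Single-nucleus libraries (10x 3' chemistry) were processed by the authors with Cell Ranger 4.0.0 on mm10, per the submitters' processing notes. The deposited values are raw UMI counts per gene and barcode, 1 matrix per mouse. Of 105759 barcodes, 105427 had at least 500 genes and at most 5% mitochondrial counts. Mural nuclei were taken by the rule given above, and other classes by the same rule on their own markers. The members and gene lists were chosen with earlier results of these data known.

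Levels are UMIs per 10000, summed over nuclei, and are not scaled to gene length, so that a gene's share of a list, or its place in it, is one of UMIs and not of transcript abundance. Whether groups of tested genes overlapped was judged on log2 CPM of the 12 fitted libraries, unless UMIs per 10000 are given. Group comparisons used counts summed per mouse over at least 10 mural nuclei, fitted with edgeR 4.0.16 in R 4.3.3 (TMM, filterByExpr, robust quasi-likelihood, all groups in 1 fit, Benjamini-Hochberg over 2207 genes, threshold 0.05), with DESeq2 1.42.0 as an alternative. The code of the fit was also run on simulated counts, as a check of the code only. The group F test and the contrasts of shares were exact two-sided permutation tests on log2 odds (0.5 added to both counts), adjusted over 5 contrasts. Intervals are 95% Wilson or exact Poisson ones. A count of 0 was bounded at 3 counts. Scrublet was run from scanpy 1.11.5 on each library, and no barcode was removed for its score. Shares were repeated with nuclei thinned to 1000 UMIs, which left out 46 mural nuclei and gave 323. Tables were read with Python 3.11.15, numpy 2.4.6, scipy 1.17.1 and pandas 2.3.3, and drawn with matplotlib 3.10.9.

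Genes named in the text were the 6 rule markers, up to 4 genes with the most UMIs in each list, the 20 genes outside the rule with the largest ratio to other barcodes (in at least 20% of mural nuclei), and in each contrast the 10 genes of smallest p without overlap between groups. Others were chosen after their values had been seen, among them genes of a list with the smallest p in a contrast, collagen IV chains and genes named for their function. Gene spans and overlaps came from GENCODE M21 (GRCm38), where 32158 of 32285 feature identifiers matched, and promoters from RefSeq (GRCm38.p6). Irag1, a second symbol for Mrvi1, was not in the files. Alternatives changed the rule, the denominator, the minimum of nuclei, the filter, the normalisation, the libraries used and the handling of other classes. Fits that left out libraries filtered the genes anew, so their list medians can cover other genes than the main fit. A few genes that the rule names are not reported here.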

Additional observations from a re-analysis of the deposited data

Results flagged for a closer look

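In the group of 4 long-term restricted mice, 38 measures were screened for a library far from the other 3, and 3 met the criterion, where chance gives about 1 in 20. The other groups, with 3 libraries each, were not screened. Glucocorticoid response genes summed to 13.8 UMIs per 10000 in the mural nuclei of replicate 1, while the other replicates had 5.22 to 6.11. The same library had the highest sums of endothelial markers (60.7) and heat shock genes (20.0) of its group, and their part in this value was not tested. Astrocyte markers summed to 7.25 UMIs per 10000 in replicate 1 and to 14.1 to 15.3 in the other replicates. Markers of oligodendrocyte precursors summed to 2.21 in replicate 2 and to 4.84 to 5.06 in the others. The screen covered these 38 measures only, and differences between contrasts were not part of it.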

How the results depend on the processing

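Across 264 alternative values of the 2 shares (mural nuclei and smooth muscle type), 0 passed the adjusted threshold (smallest exact permutation p 0.0278, smallest adjusted p 0.139) and 40 had the opposite sign. The numbers of libraries largely fixed the lack of passing values in advance. For the smooth muscle type the smallest possible exact permutation p was 0.0278 to 0.1 in the main contrasts, too large to pass after adjustment. For the share of mural nuclei it was 0.00833 to 0.1. With mural, endothelial and fibroblast nuclei together as the denominator, the log2 odds differences of the mural share were -0.56 (long-term), -0.54 (acute), -0.018 (long-term against acute) and -0.55 (any restriction). They were -0.29 for ageing among non-neuronal nuclei and -0.0145 for acute restriction after thinning. They were -0.33 for ageing and -0.17 for acute restriction among mural or endothelial nuclei, and -0.58 for ageing without the libraries numbered 1. Leaving out 1 library at a time gave -0.77 to 1.23 for ageing, -0.30 to 1.71 for long-term, -0.62 to 1.38 for acute, -0.018 to 0.61 for long-term against acute and -0.44 to 1.57 for any restriction. For the smooth muscle type the differences of opposite sign were 0.062, 0.12, -0.062 and 0.089 (long-term, acute, long-term against acute, any) with the rule at 10 UMIs per 10000, and 0.020 (long-term) at 40. They were 0.081 and 0.016 (long-term, any) with 4 markers, 0.13 (long-term) without barcodes of another class, and -0.44 and -0.20 (ageing, long-term against acute) after thinning. They were 0.27 and -1.08 (acute, long-term against acute) without Cald1, and 0.13, 0.080 and 0.11 (long-term, acute, any) without the libraries numbered 1. Leaving out 1 library at a time gave -0.049 to 0.55, -0.34 to 0.23, -0.36 to 0.13, -0.23 to 0.31 and -0.30 to 0.18 for ageing, long-term, acute, long-term against acute and any restriction. The cause of these sign changes was not tested.

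Of 140 alternative counts of called genes, 11 were above 0. Without the filter on low counts there were 2 for ageing, 4 for long-term, 2 for acute and 2 for any restriction, with F13a1 in each. Cntn5 was among them for ageing and for acute restriction, and Dtna for long-term restriction. Leaving out 1 library at a time gave 0 to 1 for any restriction (Kctd16, without old ad libitum replicate 2, which leaves that group 1 library whose spread is taken from the other groups) and 0 in the other contrasts. Without the libraries numbered 1 there was 1 for long-term against acute restriction, Hbb-bs. Long-term restriction was also among the 11 there, but its old ad libitum group kept 1 library, so its count is not given. A term for those libraries gave 1 for ageing, 1 for long-term and 2 for long-term against acute restriction, all haemoglobin genes. The replicate block gave 1 for long-term against acute restriction, Hbb-bs, and 0 in the other contrasts. The numbers were not taken to pair the mice, since 10 of 15 same-numbered pairs, not all, correlated above 0.1 (-0.28 to 0.41, median 0.12). The pairs among libraries numbered 1 all did (0.11 to 0.41), other pairs of libraries had a median of -0.084, and 4 of 11 libraries correlated best with their own number. These correlations used deviations from group means, which sum to 0 within a group, so the pairs are not independent. For the 2 fitted old ad libitum libraries the values are mirror images (0.108 and -0.108 with young replicate 1). The correlations therefore do not settle whether the mice were paired. Of 1242 alternative values of 50 named gene results, 3 changed sign: Atp2b2 for long-term restriction (-0.0042) and Cntn5 for acute restriction (-0.23) with the rule at 10 per 10000, and Cntn5 (-0.45) at 40. Leaving out 1 library moved 13 of the 50 by over 1 log2 unit with no change of sign, and 38 of 55 list medians took the opposite sign without at least 1 library.

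Depth limits these results: 6 to 75 nuclei per mouse, with a median of 1460.5 UMIs each, left 2207 genes for testing, and genes of low counts such as Col4a4, Acta2 and Cnn1 had no test over mice. The old ad libitum group had 2 libraries in the fit of expression reported. Nuclei that also met another class rule were kept, and without them 10 libraries had enough nuclei.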

Other observations

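Across the 2206 fitted genes with a gene model, the rank correlation between log2 fold change and gene span was 0.067 for old against young, 0.17 for long-term restriction, 0.11 for acute restriction, 0.072 for long-term against acute restriction and 0.15 for any restriction. Genes are not independent, the contrasts of long-term, acute and any restriction share their control libraries, and these values are a description. Macrophage markers reached 5.64 UMIs per 10000 in the mural nuclei of old ad libitum replicate 1 and at most 0.137 elsewhere, with 57 UMIs of F13a1 in 2 mural nuclei.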
